A study of Mus musculus with 12 samples.

Results

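Coenzyme Q is a lipid that carries electrons within the inner mitochondrial membrane, and 10 genes of its synthesis and of the related Adck kinase-like family were followed across mouse embryonic fibroblasts (MEFs) in full medium and after starvation. The genes were Adck1, Adck2, Adck3, Adck4, Adck5, Coq2, Coq3, Coq5, Coq7 and Coq9. They were selected on their names, with values of these libraries known, as the rows of the count table that carry these symbols. All 10 were found among the 24062 rows. As the choice was made with the measurements in view, the members' values are given as a description with their errors and without p-values.

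RNA was sequenced from shRenilla MEFs, which carry a control shRNA against a luciferase absent from mouse cells, and from shBruce MEFs, which carry an shRNA against Birc6, the gene of the ubiquitin enzyme BRUCE. Both lines were kept in full medium (FM) or starved for 2 h in a medium lacking serum and amino acids (Starv), which gave 4 conditions of 3 replicates. The shRNAs were delivered by retrovirus in a miR-E backbone under an SFFV promoter, and each is represented by a single line, so the knockdown and other differences between the lines cannot be told apart. The labels do not state whether replicates were separate cultures, and all errors and p-values therefore measure the spread between these libraries.

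The head group of coenzyme Q is joined to a long isoprenoid tail in mitochondria and then modified on its ring by a complex of enzymes. The reduced lipid passes electrons from several dehydrogenases to respiratory complex III. COQ8A and COQ8B, the current names of the products of Adck3 and Adck4, are kinase-like ATPases related to yeast Coq8, which is needed for that complex. COQ2 attaches the tail, COQ3 and COQ5 are methyltransferases, COQ7 is a hydroxylase, and COQ9 is a lipid-binding partner of COQ7. ADCK1, ADCK2 and ADCK5 share the kinase-like fold, and their roles are less well defined.

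Total counts ranged from 13200393, in shBruce Starv replicate 2, to 18510540 in 11 of the libraries, and shBruce Starv replicate 1 stood apart with 7717265. Birc6 was lower in shBruce MEFs in both media, by a log2 fold change of -1.75 (SE 0.25, edgeR adjusted p = 0.0627) in FM and of -1.98 (SE 0.25, edgeR adjusted p = 0.0186) in Starv. Fibroblast markers summed to between 8918 and 13596 CPM (counts scaled to a common library total) in every library, with 8 of 9 well detected and Thy1 at no more than 3 counts. Lists of epithelial, endothelial, muscle and adipocyte markers each summed to at most 4.33 CPM, and that of leukocytes and macrophages to between 4.95 and 9.89. The list of 3 neuronal markers was higher in starved cells (11.2 to 14.9 in shRenilla FM, 19.5 to 22.8 in shRenilla Starv, 17.7 to 20.6 in shBruce FM and 26.3 to 27.8 in shBruce Starv). Nearly all of it was Tubb3, since Rbfox3 and Snap25 had at most 3 counts in any library, and its part in the results below was not tested.

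Adck3 lies on chromosome 1 of GRCm38, at chr1:180165238-180199602 on the minus strand in GENCODE M21. Its RefSeq entries give 2 start sites with separate promoters. Both windows lie inside the GENCODE interval, and neither covers its 5′ end. The 2 Adck3 windows are shown first because Adck3 differed most between the media. The promoters of Adck2 and Coq9 follow, whose differences between the media were the next in size in both lines. Each window spans 250 bases before to 50 bases after the annotated start, 5′ to 3′ on the gene's strand, from RefSeq on GRCm38.p6. Capitals mark an NRF1 core (GCGCANGCG) in the first window and an ETS core (CCGGAAG) in the third, searched on both strands.
Adck3, chr1:180195971-180196270, minus strand: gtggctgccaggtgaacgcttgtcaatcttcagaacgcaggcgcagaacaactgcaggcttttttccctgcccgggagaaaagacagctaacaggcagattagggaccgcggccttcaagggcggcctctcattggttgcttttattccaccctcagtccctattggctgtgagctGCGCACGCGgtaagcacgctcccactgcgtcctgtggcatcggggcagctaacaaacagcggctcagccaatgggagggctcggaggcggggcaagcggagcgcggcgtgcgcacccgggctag
Adck3, chr1:180193436-180193735, minus strand: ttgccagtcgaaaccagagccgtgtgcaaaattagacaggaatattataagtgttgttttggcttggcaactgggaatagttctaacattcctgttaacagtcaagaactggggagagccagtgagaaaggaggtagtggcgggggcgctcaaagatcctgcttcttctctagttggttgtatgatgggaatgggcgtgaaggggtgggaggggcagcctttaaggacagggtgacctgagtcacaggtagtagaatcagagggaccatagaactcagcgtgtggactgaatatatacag
Adck2, chr6:39573626-39573925, plus strand: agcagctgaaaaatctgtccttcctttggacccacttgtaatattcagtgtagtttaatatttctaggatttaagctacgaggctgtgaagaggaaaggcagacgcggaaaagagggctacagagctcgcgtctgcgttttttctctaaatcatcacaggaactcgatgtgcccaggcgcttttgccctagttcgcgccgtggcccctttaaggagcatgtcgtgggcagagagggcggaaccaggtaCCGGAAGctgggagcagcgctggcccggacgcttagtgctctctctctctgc
Coq9, chr8:94838163-94838462, plus strand: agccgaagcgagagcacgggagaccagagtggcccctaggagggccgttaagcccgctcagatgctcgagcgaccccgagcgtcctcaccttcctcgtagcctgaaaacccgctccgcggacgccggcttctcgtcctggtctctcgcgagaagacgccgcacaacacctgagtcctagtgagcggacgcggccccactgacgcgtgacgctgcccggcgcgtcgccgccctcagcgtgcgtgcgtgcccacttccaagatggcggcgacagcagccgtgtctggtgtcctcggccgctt

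The upstream Adck3 window was rich in CpG, with 22 CpG dinucleotides and a GC content of 61.7%, against a median of 7 CpG and 52.7% over 32851 promoters. Its NRF1 core began 74 bases before the start. The downstream window had 6 CpG and a GC content of 48.7%, and none of the 4 motifs searched. In the Adck2 window the ETS core began 2 bases before the start. An NRF1 core was present in 6.25% of all promoters, an ETS core in 8.86%, an E-box (CACGTG) in 7.15% and a forkhead core (TGTTTAC) in 3.65%. Windows were at hand for 7 of the 10 members, and the forkhead core was in none of their 10 windows. Among those not printed, a Coq3 window also held an NRF1 core, beginning at the start. An Adck1 window held an E-box that began 10 bases before the start. These matches describe letters in a window and not binding.

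Adck3 was barely detected in FM and readily detected after 2 h of starvation, in both lines. Raw counts in FM were 14, 7 and 9 in shRenilla MEFs and 13, 10 and 9 in shBruce MEFs. After starvation they were 109, 99 and 94 in shRenilla MEFs and 50, 76 and 131 in shBruce MEFs. Each starved library thus lay above each library in FM, also the one of low depth. At 7 to 14 counts per library in FM, Adck3 lay near the limit of the filter on low counts there.

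Normalised to library size, the Adck3 counts in shRenilla MEFs were 11.4, 6.60 and 8.06 in FM and 87.0, 85.7 and 89.5 in Starv. The starved replicates differed little from each other, with a mean of 87.4 ± 1.94 (SD, n = 3) against 8.70 ± 2.47 (SD, n = 3) in FM. In shBruce MEFs the normalised counts were 13.8, 10.5 and 8.93 in FM and 101, 81.1 and 122 in Starv, with means of 11.1 ± 2.49 and 101 ± 20.3 (SD, n = 3). The fitted difference was 9.82-fold in shRenilla MEFs (log2 fold change 3.30, SE 0.26, 95% interval 2.74 to 3.85). In shBruce MEFs it was 9.11-fold (log2 fold change 3.19, SE 0.26, 95% interval 2.63 to 3.74). Ordered from the most increased, Adck3 stood at place 7 of 12154 genes tested in shRenilla MEFs and at place 20 in shBruce MEFs. Without shBruce Starv replicate 1 its log2 fold change in shBruce MEFs was 3.18, and over all alternatives of the processing it lay between 3.01 and 3.37 there and between 3.13 and 3.55 in shRenilla MEFs. In bulk RNA, fewer cells expressing a gene and less of its RNA per cell cannot be told apart.

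**Figure D1:**
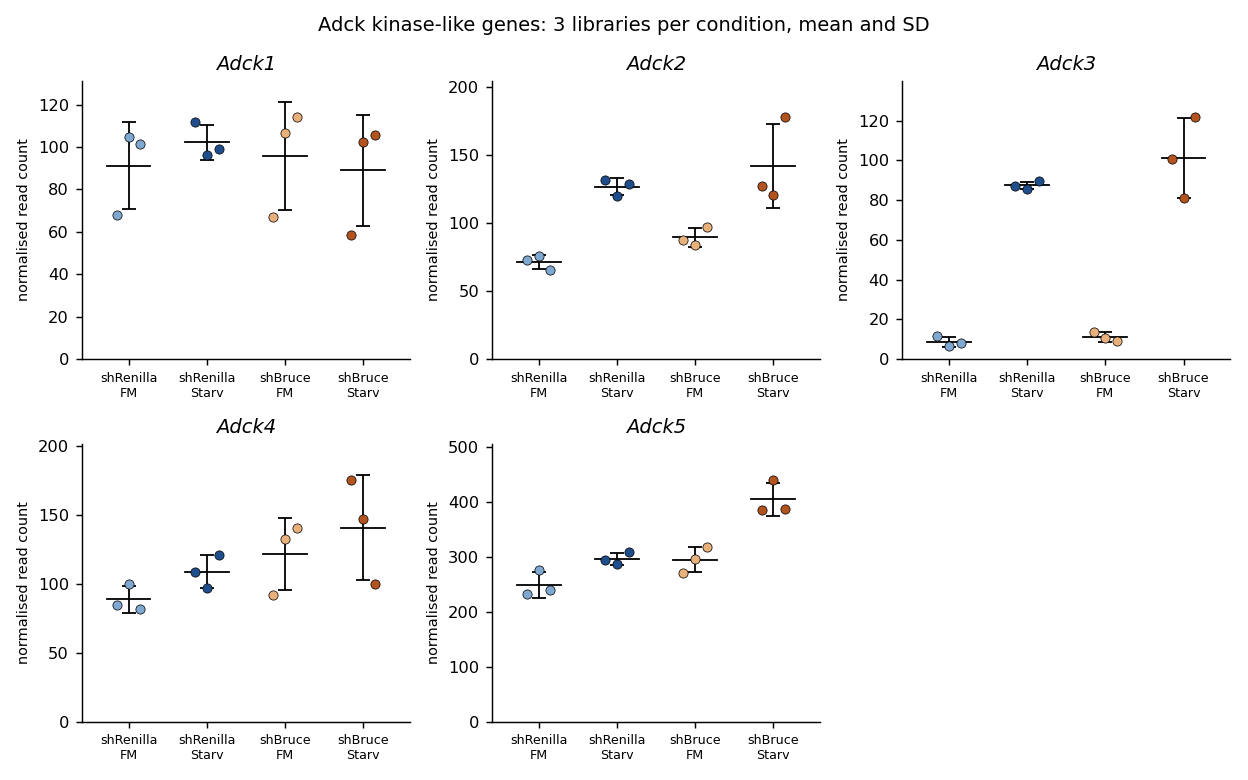
Normalised read counts of the 5 Adck genes in each library (points), by condition, with the mean (line) and SD (bar) of 3 replicates and each axis starting at 0. Adck3 lay between 6.60 and 13.8 in the FM libraries and between 81.1 and 122 in the starved ones, while Adck1 and Adck4 overlapped between the media in both lines.

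Adck2 was also higher after starvation in both lines, by a smaller margin. Its normalised counts were 72.6, 75.4 and 65.4 in shRenilla FM and 132, 119 and 129 in shRenilla Starv. In shBruce MEFs they were 87.1, 83.7 and 97.2 in FM and 127, 121 and 177 in Starv, the last from replicate 3. The media did not overlap in either line. The log2 fold change was 0.83 (SE 0.17, 95% interval 0.46 to 1.20) in shRenilla MEFs and 0.67 (SE 0.17, 95% interval 0.30 to 1.05) in shBruce MEFs, where it was 0.46 without replicate 3 of Starv.

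Adck5 had the highest level per length of the Adck genes. Its normalised counts were 232, 276 and 240 in shRenilla FM, 294, 287 and 308 in shRenilla Starv, 271, 296 and 317 in shBruce FM and 386, 440 and 387 in shBruce Starv. The starved libraries lay above those in FM in both lines, with a log2 fold change of 0.25 (SE 0.13, 95% interval -0.02 to 0.52) in shRenilla MEFs and of 0.46 (SE 0.13, 95% interval 0.19 to 0.73) in shBruce MEFs.

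Adck4, the closest relative of Adck3, overlapped between the media. Normalised counts of Adck4 were 84.9, 100 and 81.5 in shRenilla FM and 109, 96.9 and 121 in shRenilla Starv. In shBruce MEFs they were 92.4, 133 and 141 in FM and 176, 147 and 100 in Starv. The highest FM library exceeded the lowest starved one in both lines, with log2 fold changes of 0.29 (SE 0.22, 95% interval -0.18 to 0.77) and 0.19 (SE 0.22, 95% interval -0.29 to 0.66). Adck1 likewise overlapped, with normalised counts from 58.5 to 114 over the 12 libraries and log2 fold changes of 0.17 (SE 0.25) and -0.08 (SE 0.26).

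As a share of the summed level per length (FPKM, computed from the counts and the union of annotated exons) of the 5 Adck genes, Adck3 made up 1.39% ± 0.50 in shRenilla FM and 9.83% ± 0.24 in shRenilla Starv (SD, n = 3). In shBruce MEFs its share was 1.48% ± 0.51 in FM and 9.22% ± 1.84 in Starv. The summed FPKM of the family was 8.26 ± 0.76 in shRenilla FM and 11.5 ± 0.48 in shRenilla Starv, and 9.93 ± 1.10 and 14.2 ± 0.48 in shBruce MEFs. Adck5 held the main part in every condition, with a mean share from 48.6% to 56.9%.

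Among the Coq genes, Coq9 differed most between the media, and was higher after starvation in both lines. Its normalised counts were 395, 446 and 403 in shRenilla FM and 551, 546 and 684 in shRenilla Starv. In shBruce MEFs they were 368, 443 and 439 in FM and 474, 616 and 640 in Starv. All starved libraries lay above those in FM of the same line, the narrowest gap being that of shBruce Starv replicate 1. The log2 fold change was 0.52 (SE 0.15, 95% interval 0.20 to 0.83) in shRenilla MEFs and 0.47 (SE 0.15, 95% interval 0.15 to 0.79) in shBruce MEFs, where it was 0.58 without that library.

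Coq7, which encodes the hydroxylase that COQ9 assists, overlapped between the media. Its normalised counts were 442, 511 and 423 in shRenilla FM, 401, 388 and 463 in shRenilla Starv, 608, 658 and 606 in shBruce FM and 795, 769 and 478 in shBruce Starv. No order of the media held in either line, with log2 fold changes of -0.14 (SE 0.17, 95% interval -0.51 to 0.24) and 0.12 (SE 0.17, 95% interval -0.25 to 0.50).

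Coq2 and the methyltransferase genes differed little between the media. Coq2 had normalised counts of 287, 300 and 271 in shRenilla FM and 324, 339 and 407 in shRenilla Starv, a log2 fold change of 0.32 (SE 0.15, 95% interval 0.00 to 0.63) without overlap. In shBruce MEFs Coq2 overlapped between the media (log2 fold change 0.06, SE 0.15). Coq3 was narrowly higher in starved libraries of both lines, at 427, 423 and 422 against 441, 509 and 482 in shRenilla MEFs and at 467, 439 and 467 against 565, 522 and 506 in shBruce MEFs. The log2 fold changes of Coq3 were 0.17 (SE 0.11) and 0.21 (SE 0.11). Coq5 overlapped in both lines, with log2 fold changes of -0.12 (SE 0.14) and 0.09 (SE 0.14) and normalised counts from 447 to 713.

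**Figure D2:**
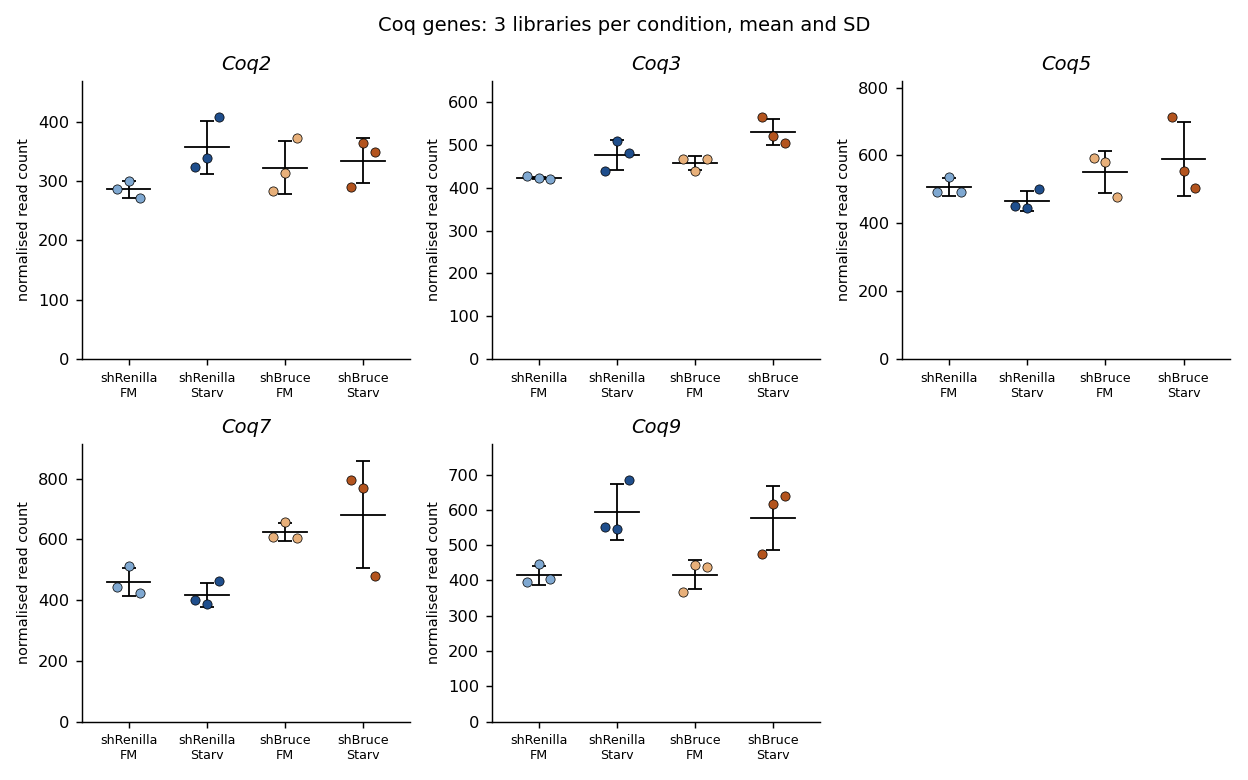
Normalised read counts of the 5 Coq genes in each library (points), by condition, with the mean (line) and SD (bar) of 3 replicates and each axis starting at 0. Coq9 was higher in starved libraries of both lines, and Coq7 was higher in the shBruce FM libraries (606 to 658) than in the shRenilla FM libraries (423 to 511).

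Counted over the members, 3 of 10 were called higher after starvation in shRenilla MEFs (Adck2, Adck3 and Coq9) and none lower, at an edgeR adjusted p under 0.05. Over all 12154 genes tested, 17.0% were called there, 9.69% higher and 7.27% lower. In shBruce MEFs 4 of 10 were called higher (Adck2, Adck3, Adck5 and Coq9), where 23.0% of all genes were called, 12.4% higher and 10.6% lower. The median log2 fold change of the members was 0.27 in shRenilla MEFs and 0.20 in shBruce MEFs, against -0.01 and 0.02 over all genes tested. Starved and FM libraries did not overlap for 6 members in shRenilla MEFs and 5 in shBruce MEFs, all higher in Starv. Over all genes tested, 25.9% and 16.2% were higher without overlap. As the members were chosen with these values known, nothing is read from these counts. In shBruce MEFs the count was 1 without FM replicate 1 or FM replicate 2 and 2 without Starv replicate 2. Of all genes, 1916, 1855 and 2992 were called in these settings.

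**Figure D3:**
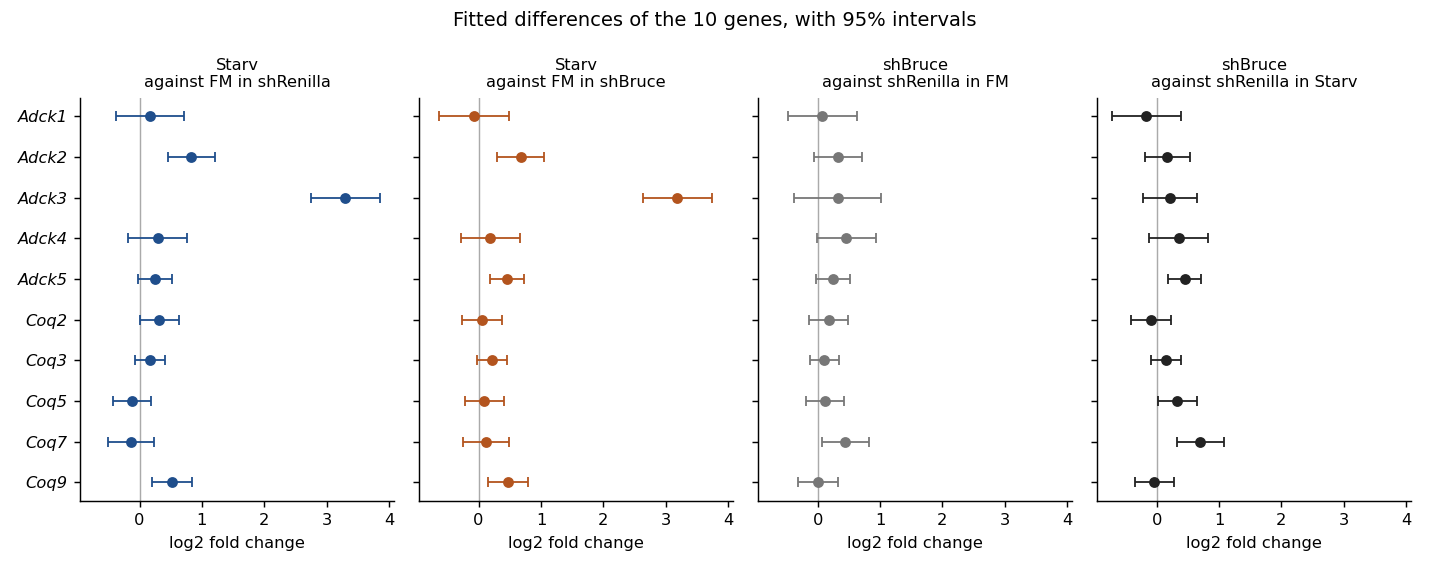
Log2 fold changes (points) of the 10 members with 95% intervals (bars) from the edgeR fit, for starvation in each line and for shBruce against shRenilla MEFs in each medium. Adck3 stood at 3.30 and 3.19 on starvation, and the next member, Adck2, at 0.83 and 0.67.

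Between the lines Adck2, Adck3 and Coq9 differed less than between the media, whereas Coq7 differed more. The fitted difference of Adck4 was also larger between the lines, but the lines overlapped in both media. It was 0.46 (SE 0.22, 95% interval -0.02 to 0.94) in FM and 0.36 (SE 0.22, 95% interval -0.12 to 0.83) in Starv. In FM all 10 members had a log2 fold change above 0 in shBruce MEFs, from 0.01 for Coq9 to 0.46 for Adck4, with a median of 0.21 against 0.01 over all genes. None was called by edgeR, DESeq2 or limma-voom, and 1 had an unadjusted p under 0.05 with each tool. Of all genes tested, 0% were called by edgeR, 1750 had an unadjusted p under 0.05 in edgeR and 51.0% lay above 0. After removal of a fitted dependence on gene length and GC content, Coq2 was at -0.05, Coq5 at -0.03 and Coq9 at -0.23 in FM. Adck5 was then at 0.01, and the other members stayed above 0. Coq7 was the member with a 95% interval furthest from 0, at a log2 fold change of 0.44 (SE 0.17, 95% interval 0.07 to 0.82). Adck2, Coq3 and Coq7 were higher in shBruce FM without overlap, as were 16.4% of all genes. Adck3 differed by 0.32 (SE 0.32, 95% interval -0.37 to 1.02), an interval wide enough for a difference in either direction at 7 to 14 counts per library.

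In Starv, Adck5 and Coq7 were called higher in shBruce MEFs, 2 of 10 members, where 23.9% of all genes were called, 12.8% higher and 11.2% lower. The log2 fold change of Coq7 was 0.70 (SE 0.18, 95% interval 0.32 to 1.08), and each shBruce Starv library (795, 769 and 478) lay above the shRenilla Starv libraries (401, 388 and 463), replicate 3 only narrowly. For Adck5 it was 0.45 (SE 0.12, 95% interval 0.18 to 0.72), without overlap of the lines. Coq5 also did not overlap (16.4% of all genes were higher without overlap), with a log2 fold change of 0.33 (SE 0.14, 95% interval 0.02 to 0.65). Adck3 differed by 0.22 (SE 0.20, 95% interval -0.22 to 0.65), and the members' median was 0.19 against -0.0012 over all genes.

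The calls in Starv depended on single libraries, and the log2 fold changes of some members on the base composition and length of the genes. Without shBruce Starv replicate 1 the log2 fold change was 0.56 for Coq7, 0.46 for Adck5 and 0.17 for Coq5. No member was called without shBruce Starv replicate 1 or 2 or without shRenilla Starv replicate 1 or 2, and 4 were called without shBruce Starv replicate 3. Calls over all genes moved in the same way, to 573 and 15 without shBruce Starv replicates 1 and 2, to 0 without shRenilla Starv replicate 1 or 2 and to 5735 without shBruce Starv replicate 3, so these counts are not particular to the members. After removal of a fitted dependence on gene length and GC content in each library, Coq7 remained at 0.69 whereas Adck5 was at 0.07, Coq5 at 0.06, Coq2 at -0.46 and Coq9 at -0.42.

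The effect of starvation was also compared between the lines by the interaction of line and medium. For Adck3 it was -0.11 on the log2 scale (SE 0.37, 95% interval -0.91 to 0.69), an interval that covers differences of almost 1 log2 unit towards a smaller effect in shBruce MEFs. Over the members it ranged from -0.26 for Coq2 to 0.26 for Coq7. No member was called by edgeR, DESeq2 or limma-voom and 0 had an unadjusted p under 0.05, where 0% of all genes were called by edgeR and 474 had an unadjusted p under 0.05.

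The order of the members by level per length placed the Coq genes above the Adck genes apart from Adck5. In shRenilla FM the mean FPKM was 11.4 ± 0.58 for Coq5, 9.69 ± 0.06 for Coq3, 9.30 ± 0.61 for Coq9, 7.46 ± 0.38 for Coq2, 4.88 ± 0.49 for Coq7 and 4.70 ± 0.45 for Adck5 (SD, n = 3). Below these came Adck2 at 1.23 ± 0.09, Adck1 at 1.13 ± 0.25, Adck4 at 1.09 ± 0.12 and Adck3 at 0.11 ± 0.03. Coq3 and Coq9 overlapped in that condition, as did Coq7 with Adck5, Adck2 with Adck1 and Adck1 with Adck4, while Adck3 lay below all others. After starvation Adck3 reached 1.13 ± 0.03 in shRenilla MEFs, still below Adck1 (1.26 ± 0.10) without overlap. In shBruce Starv its 1.31 ± 0.26 overlapped with Adck4 (1.73 ± 0.47) and Adck1 (1.10 ± 0.33). With the longest transcript in place of the exon union, Adck3 was lowest in all 4 conditions, and the order of Coq2, Coq3, Coq5, Coq7 and Coq9 and of Adck1, Adck2 and Adck4 changed.

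Reads of overlapping genes could touch some of these values, since the strand setting of the counting is not given in the sources used here. Cdc42bpa, on the opposite strand, shares 366 exonic bases with Adck3, 6.9% of its exons. Normalised counts of Cdc42bpa were 2795 ± 237 in shRenilla FM, 2581 ± 457 in shRenilla Starv, 2314 ± 81.8 in shBruce FM and 1725 ± 460 in shBruce Starv (SD, n = 3). The log2 fold change of Cdc42bpa on starvation was -0.11 in shRenilla MEFs and -0.42 in shBruce MEFs and passed the test in neither, and the part of such reads in the Adck3 values was not tested. Ciapin1 shares 38 bases with Coq9 (1.2%), Cpsf1 14 bases with Adck5 (0.4%) and 3200001D21Rik 246 bases with Adck1 (4.4%). Other overlapping genes are not in the count table. The largest overlaps of these were Gm42420 with Adck2, on the same strand (489 bases, 12.4%), Gm15567 with Adck4 (455 bases, 8.1%) and 5730521K06Rik with Adck5 (307 bases, 8.5%). Their part in the members' values was not tested.

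By Pearson's r over the 12 libraries, on log2 CPM, the 5 genes most like Adck3 among 12153 others were Chac1 (0.992), Zfp784 (0.988), A930024E05Rik (0.987), Fbxo32 (0.987) and Herpud1 (0.987). The libraries fall into FM and Starv, so r mainly measures how cleanly a gene separates the media. CHAC1 degrades glutathione, FBXO32 is the substrate adaptor of a ubiquitin ligase known from muscle atrophy, and HERPUD1 acts in the disposal of proteins from the endoplasmic reticulum. Chac1 had normalised counts of 275 ± 9.24 in shRenilla FM and 3377 ± 316 in shRenilla Starv, and of 352 ± 46.2 and 3745 ± 184 in shBruce MEFs (SD, n = 3). Fbxo32 stood at 97.0 ± 0.69 and 829 ± 42.1 in shRenilla MEFs and at 93.0 ± 16.3 and 787 ± 107 in shBruce MEFs. The log2 fold changes of these 5 genes on starvation ranged from 2.01 for Zfp784 to 3.62 for Chac1 in shRenilla MEFs. Of the other members, Adck2 (0.918), Coq9 (0.829), Coq3 (0.758) and Adck5 (0.665) followed Adck3 most closely by this measure, and Adck1, Coq5 and Coq7 were between -0.03 and 0.00.

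**Figure D4:**
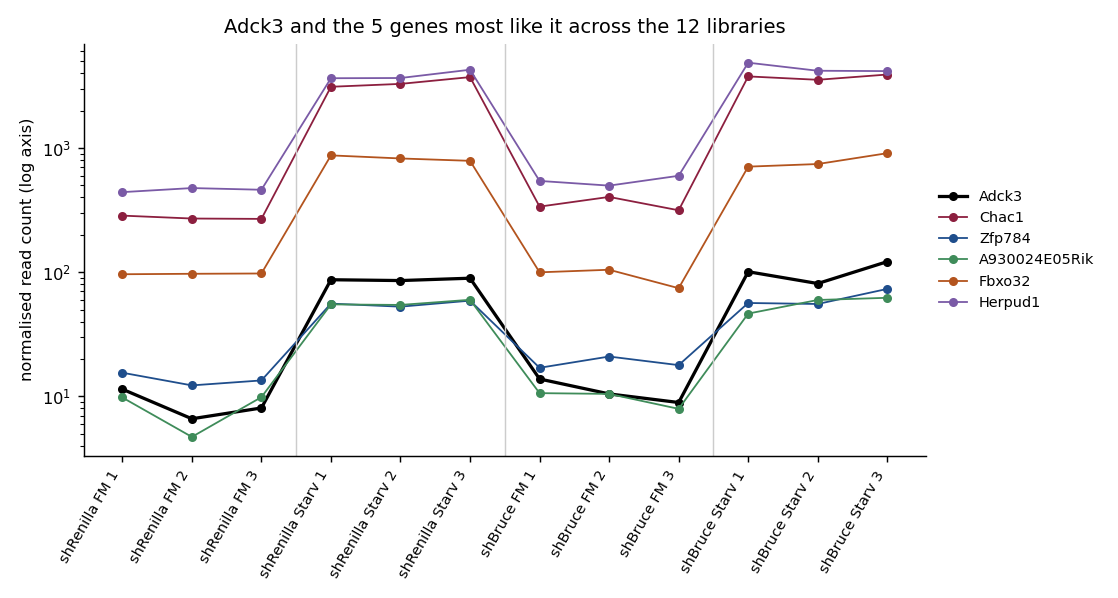
Normalised read counts (log axis) of Adck3 and of the 5 genes most like it by Pearson's r, in each of the 12 libraries, with lines separating the conditions. All 6 genes were low in the 6 FM libraries and high in the 6 starved ones, Adck3 between 6.60 and 122.

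Genes that act beside the members in the coenzyme Q pathway were taken as 3 lists, of 14 further synthesis genes, 9 enzymes of the mevalonate and isoprenoid route that supplies the tail, and 15 enzymes that hand electrons to coenzyme Q. The first list, called synthesis genes for short, is not limited to synthesis enzymes and includes the coenzyme Q-binding protein gene Coq10a and its paralog Coq10b. Of the 38 genes, 37 passed the filter on low counts. On starvation 3 were called by edgeR in shRenilla MEFs (2 higher, 1 lower) and 4 in shBruce MEFs (2 higher, 2 lower), while 17.0% and 23.0% of all genes were called. Their median log2 fold change was -0.11 and -0.09.

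Among the further synthesis genes, Coq10a, which encodes a coenzyme Q-binding START-domain protein, rose in both lines. Its normalised counts were 189, 234 and 195 in shRenilla FM and 281, 288 and 318 in shRenilla Starv, a log2 fold change of 0.52 (SE 0.14, edgeR adjusted p = 0.0238). The shBruce MEFs had 189, 211 and 231 in FM and 452, 392 and 356 in Starv, a log2 fold change of 0.92 (SE 0.14, edgeR adjusted p = 7.18e-04). The media did not overlap in either line. Its paralog Coq10b fell in shBruce MEFs, from 861 ± 98.5 in FM to 565 ± 153 in Starv (SD, n = 3, log2 fold change -0.60, edgeR adjusted p = 0.0242). In shRenilla MEFs Coq10b was also lower in Starv, at 1035 ± 99.2 in FM and 754 ± 23.1 in Starv (SD, n = 3), but was not called. None of the other 12 genes of this list was called on starvation in either line. Without shBruce Starv replicate 1 the log2 fold change of Coq10b was -0.43 (edgeR adjusted p = 0.0329, range 0.00225 to 0.141 over the alternatives).

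Of the electron-donating enzymes, Chdh rose in both lines. It encodes choline dehydrogenase, which oxidises choline in mitochondria and reduces coenzyme Q. Normalised counts were 25.3, 30.2 and 38.5 in shRenilla FM and 83.8, 77.0 and 76.2 in shRenilla Starv, with a log2 fold change of 1.33 (SE 0.31, edgeR adjusted p = 0.0107). The shBruce libraries had 27.6, 32.5 and 27.8 in FM and 78.7, 74.7 and 179 in Starv, the last from replicate 3, with a log2 fold change of 1.95 (SE 0.32, edgeR adjusted p = 9.83e-04). The other 13 genes tested, among them all 4 subunits of succinate dehydrogenase, were not called. In shRenilla MEFs the count over the 3 lists was 0 without shRenilla FM replicate 1, beside 1224 of all genes. It was 1 without shRenilla FM replicate 3, beside 1199 of all genes. Without shRenilla Starv replicate 1, 2 or 3 it was also 1, beside 1153, 1149 and 1499 of all genes. Without shBruce Starv replicate 1 it was 6, beside 3212 of all genes. In shBruce MEFs the count was 7 without shBruce Starv replicate 2 or 3, beside 2992 and 4009 of all genes.

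**Figure D5:**
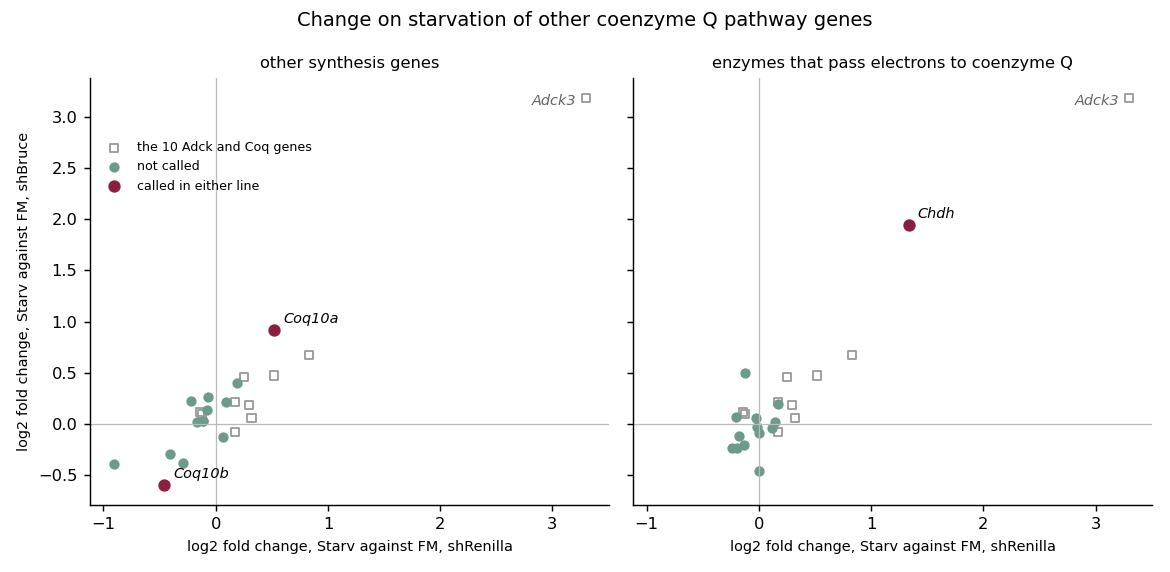
Log2 fold change on starvation in shRenilla MEFs (horizontal axis) and in shBruce MEFs (vertical axis) for the synthesis genes and the electron-donating enzymes of the coenzyme Q pathway lists (circles, dark red where edgeR called the gene in either line), with the 10 members as open squares. Coq10a and Chdh lay above 0 and Coq10b below 0 in both lines, and Adck3 lay apart from all genes plotted at 3.30 and 3.19.

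Between the lines, none of the 37 pathway genes was called in FM by edgeR, DESeq2 or limma-voom. In edgeR 7 had an unadjusted p under 0.05, beside 1750 of the 12154 genes tested. In Starv 7 were called by edgeR, 6 higher and 1 lower in shBruce MEFs, beside 12.8% of all genes higher and 11.2% lower. The synthesis genes Fdxr (log2 fold change 0.65, SE 0.19, edgeR adjusted p = 0.0322), Coq4 (0.51, SE 0.17, edgeR adjusted p = 0.0425), Coq10a (0.43, SE 0.14, edgeR adjusted p = 0.0440) and Coq6 (0.39, SE 0.12, edgeR adjusted p = 0.0363) were higher. COQ4 and COQ6 belong to the synthesis complex, and FDXR encodes the reductase that feeds electrons to the ferredoxin used by COQ6. Fdxr had normalised counts of 169, 162 and 214 in shRenilla Starv and 315, 328 and 217 in shBruce Starv, which did not overlap. Without shBruce Starv replicate 1 the log2 fold change of Coq4 was 0.31, and after removal of the length and GC dependence that of Fdxr was 0.17 and that of Coq10a -0.08.

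The electron-transfer flavoprotein gene Etfb was higher in shBruce Starv (log2 fold change 1.11, SE 0.26, edgeR adjusted p = 0.0231), with 540, 524 and 647 normalised counts in shRenilla Starv and 1918, 1098 and 710 in shBruce Starv. Its highest value was that of shBruce Starv replicate 1, without which its log2 fold change was 0.65 (edgeR adjusted p = 0.0513, range 5.14e-04 to 0.146 over the alternatives). Sdhb, a subunit of succinate dehydrogenase, was also higher (log2 fold change 0.46, edgeR adjusted p = 0.0413). Ggps1, which makes geranylgeranyl diphosphate, was lower (log2 fold change -0.56, edgeR adjusted p = 0.0305). Without shBruce Starv replicate 1 or 2, or without shRenilla Starv replicate 1 or 2, none of the pathway genes was called in Starv, as calls over all genes also dropped (573, 15, 0 and 0). Without shRenilla FM replicate 1 or 3 or shBruce FM replicate 1 the count was 3, beside 1972, 2021 and 2192 of all genes. Without shBruce FM replicate 2 it was 4, beside 2289 of all genes. Without shBruce Starv replicate 3 it was 17, with 5735 of all genes called. After removal of the length and GC dependence 1 pathway gene was called, beside 977 of all genes, and it was none of those called before the removal. The log2 fold changes were then 0.41 for Etfb, -0.25 for Ggps1 and -0.03 for Sdhb. For the interaction of line and medium none was called by edgeR, DESeq2 or limma-voom. In edgeR 1 pathway gene had an unadjusted p under 0.05 there, beside 474 of all genes.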

How the data were processed

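RNA-Seq counts of 12 libraries of MEFs were used, from shRenilla or shBruce cells in FM or Starv, with 3 replicates per condition. The authors made libraries from poly(A) RNA for single-end sequencing, discarded rRNA reads, mapped the rest to mm10 with STAR 2.4.0d and counted reads per gene with HTSeq 0.5.4p3, and the deposited values are raw read counts without normalization. The annotation and the strand setting of the counting are not given in the sources used here. Symbols that had been turned into dates, 27 with 0.296% of counts, were kept as given.

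The members and the gene lists were chosen with earlier results of these data known. The fit used edgeR 4.0.16 under R 4.3.3 (TMM, filterByExpr by condition, a mean per condition over all 12 libraries, quasi-likelihood test, two-sided, Benjamini-Hochberg adjustment over 12154 genes tested, level 0.05). Normalised counts are counts divided by the effective library size scaled by the geometric mean over the 12 libraries. FPKM used the union of exons of GENCODE M21 on GRCm38, to which 22724 of 24062 symbols matched directly and 905 through older symbols, and Pearson's r used log2 CPM with a prior count of 2. Replicates differed beyond counting error (chi-square per degree of freedom 2.18 to 92.3), so precision is given as the SD or as a standard error with a 95% interval. The standard error is the absolute log2 fold change divided by the square root of the F statistic of the test, which is an approximation. At low counts, such as those of Adck3 in FM, it can fall below counting error, so intervals there may be too narrow.

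Named were all 10 members, Birc6, the 5 genes most like Adck3 and, for each pathway list and comparison, up to 3 called genes with the largest absolute log2 fold change. Coq6, the fourth called synthesis gene in Starv, and the overlapping genes in the count table were named after their values were seen. Overlapping genes not in the count table were named from the annotation. The processing was varied by taking size factors from DESeq2 into edgeR, by DESeq2 1.42.0 with its Wald test, by limma-voom (limma 3.58.1), by dropping the filter on low counts, by fitting the compared groups alone, by a block for the replicate number, by removing a dependence of each library on gene length and GC content (spline with 4 degrees of freedom) without and with that block, and by leaving out each library in turn. The processing was run on simulated counts with the same fixed spread for all genes and libraries. That run does not cover the unequal spread between replicates seen here. Python 3.11.15, pandas 2.3.3, numpy 2.4.6 and matplotlib 3.10.9 served for tables and figures. Protein sequences were not used here. A gene that the rule names is counted in its list but not reported here.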

Additional observations from a re-analysis of the deposited data

How the results depend on the processing

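On starvation the Adck3 log2 fold changes kept their direction in both lines under all alternatives run. With the groups compared fitted alone, the number of members called was 1 between the lines in FM, 0 between the lines in Starv, 5 on starvation in shRenilla MEFs and 1 in shBruce MEFs, and of pathway genes 3 in FM, 0 in Starv and 8 on starvation in shRenilla MEFs. Over all genes that setting called 597, 0, 5013 and 956 in the same order of comparisons. Without the filter on low counts, 1 member was called between the lines in Starv and 2 on starvation in shBruce MEFs, with 3 pathway genes between the lines in Starv. Of all genes, 2803 were then called between the lines in Starv and 2660 on starvation in shBruce MEFs. DESeq2's Wald test called 13 pathway genes between the lines in Starv and 5 on starvation in shRenilla MEFs, beside 3764 and 2564 of all genes. With the trend against length and GC content removed, 1 member and 1 pathway gene were called between the lines in Starv, 6 pathway genes on starvation in shRenilla MEFs and 9 in shBruce MEFs. Calls over all genes were 977, 2829 and 3752 in these comparisons. Coq10a and Sdhb turned direction between the lines in Starv with that trend removed, to -0.0813 and -0.0278 on the log2 scale, and to -0.0860 and -0.0276 with the block added. The cause of these changes was not tested.

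With each library left out in turn, the number of members called ranged from 0 to 4 between the lines in Starv, 2 to 3 on starvation in shRenilla MEFs and 1 to 4 in shBruce MEFs, and was 0 between the lines in FM and for the interaction. For the pathway genes the ranges were 0 to 17, 0 to 6 and 3 to 7, and 0 in FM and for the interaction. Calls over all genes ranged from 0 to 5735, from 1149 to 3212 and from 1855 to 4009 in the same order. They were 0 to 32 between the lines in FM and 0 for the interaction. The labels do not state whether libraries with the same replicate number were prepared together. Same-numbered libraries deviated together (correlation above 0.1) in 5 of 18 pairs, and 4 of 12 libraries correlated best with their own number. With so few libraries per condition these values cannot decide it. With the replicate block 1 pathway gene was called between the lines in Starv, beside 1932 of all genes. With the block and the trend removed 0 members and 0 pathway genes were called there, beside 1 of all genes. On starvation in shBruce MEFs that setting called 7 pathway genes, beside 3417 of all genes. At 7 to 14 counts of Adck3 per FM library, the 95% interval of the difference between the lines ran from -0.37 to 1.02.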

Other observations

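A list of 12 genes of mitochondrial content and biogenesis, of which 11 were tested, gave 2 calls on starvation in shRenilla MEFs (1 higher, 1 lower) and 4 in shBruce MEFs (1 higher, 3 lower) with edgeR, where 17.0% and 23.0% of all genes were called. Ppargc1b, which encodes a coactivator of mitochondrial gene expression, rose in both lines. Its normalised counts were 12.2, 10.4 and 11.6 in shRenilla FM and 34.3, 43.3 and 40.0 in shRenilla Starv, a log2 fold change of 1.76 (edgeR adjusted p = 0.00272). In shBruce MEFs they were 10.6, 9.42 and 10.9 in FM and 78.7, 32.0 and 37.2 in Starv, the first from the library of low depth. The log2 fold change there was 2.17 (edgeR adjusted p = 8.57e-04), and 1.72 without that library. Pprc1, the gene of a related coactivator, fell in both lines, with log2 fold changes of -0.66 (edgeR adjusted p = 0.00749) and -0.64 (edgeR adjusted p = 0.00758). Hspd1, which encodes the mitochondrial chaperonin, fell in shBruce MEFs (log2 fold change -0.43, edgeR adjusted p = 0.0394), with an adjusted p of 0.0656 without the library of low depth (range 0.00762 to 0.227 over the alternatives). In shRenilla MEFs Hspd1 was also lower in Starv, at 9040 ± 186 in FM and 7160 ± 423 in Starv (SD, n = 3), but was not called. In Starv, the transcription factor gene Gabpa was lower in shBruce than in shRenilla MEFs (log2 fold change -0.99, edgeR adjusted p = 0.0259). The citrate synthase gene Cs was lower as well (log2 fold change -0.34, edgeR adjusted p = 0.0407). None of the 11 genes was called between the lines in FM. There 1 had an unadjusted p under 0.05 in edgeR, beside 1750 of all genes tested. Without shBruce Starv replicate 1 Cs was at -0.27 (edgeR adjusted p = 0.0742, range 0.00568 to 0.160 over the alternatives, past the threshold in 6 of 20). Gabpa was at -0.64 after removal of the dependence on length and GC content.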
